A study of Mus musculus with 11 samples.

Results

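The cell cycle and DNA replication genes were 35 genes found by name among the 27567 genes that the array named. They were read by 59 of the 41121 probes used. They cover the cyclins that start and drive the cycle, the proteins that open and copy the DNA, and the kinases, checkpoint proteins and motors that divide the chromosomes. Every member was found, with Cdk1 listed under its older name Cdc2a, and all 35 passed the filter on dim probes.

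The arrays held RNA of cultured mouse heart cells, called cardiac progenitor cells in the labels and mesoangioblasts (vessel-associated progenitors) in the design text, and of C2C12, an established mouse myoblast line that served as the control for muscle differentiation. The KO-labelled cells came from mice without beta-sarcoglycan, a membrane protein whose loss causes muscular dystrophy, and the WT-labelled cells from wild-type mice. Each genotype had 1 sample from the ventricle, 1 from the aorta and 1 from the atrium, and C2C12 had 2 samples. No treatment, age, sex, passage or growth state was stated, and whether the cells were dividing or differentiating at harvest is not given in the labels. The design text speaks of biological triplicates, but nothing ties the samples to separate animals or separate cultures. The p-values therefore reflect only how these samples vary among themselves, which may be technical, and within each genotype that variation is one between heart regions.

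The cell cycle turns on a chain of cyclins. D-type cyclins link growth signals to the kinases that inactivate the Rb protein, which frees E2F factors to switch on the E-type cyclins and the replication genes, and cyclins A and B then carry the cell through S phase into mitosis. Muscle progenitors leave the cycle before they fuse into fibres, a step in which CDK inhibitors rise and cyclins fall, so these genes are widely used to read whether a muscle or heart culture is dividing.

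Of the 11 arrays, 3 pairs from the same group and region (KO ventricle, KO aorta and C2C12, each on slides 1 and 3) differed by less than the noise between repeated spots and were counted as 1 sample each. On each array 49.0 to 62.0% of probes were well above background. Precision is limited by the small number of arrays. All WT-labelled arrays lay on slide 2 and all KO-labelled arrays on slides 1 and 3, with C2C12 on every slide. Each region had its own array position, so region and position cannot be told apart. Sgcb, the gene for beta-sarcoglycan, gave 2.99, 2.34 and 2.64 on its brightest probe in the KO-labelled ventricle, aorta and atrium, against 2.20, 1.82 and 2.07 in the WT-labelled ones. The KO-labelled samples were thus not lower (difference 0.63, SE 0.21, limma adjusted p = 0.0728), which goes against the label, although the deleted part of the gene is not stated and a probe outside it checks nothing. Directions below rest on the libraries as labelled. The summed level of 9 skeletal muscle markers was 5.65 to 7.53 in the KO-labelled samples, -0.86 to 1.42 in the WT-labelled ones and 6.73 to 8.02 in C2C12. Myog, Myf5, Cdh15, Myh3 and Ckm were not well above background on any WT-labelled array. Of 8 heart muscle markers, Tbx5 was dim on all 11 arrays, and Myh6, Actn2 and Nkx2-5 were above background on no WT-labelled array. Of the 5 tested between the genotypes, 3 were called higher and 1, Nppa, lower (-2.22) in the KO-labelled samples. The list summed to 4.29 to 5.46 in the KO-labelled samples, 1.31 to 2.68 in the WT-labelled ones and 4.76 to 5.85 in C2C12. Of 7 pericyte and smooth muscle markers, Alpl was above background nowhere and Myh11 on no heart array. The list summed to 6.99 to 7.66 in the KO-labelled samples, 4.40 to 6.74 in the WT-labelled ones and 7.92 to 8.07 in C2C12. Of 6 fibroblast markers, Tcf21 was above background nowhere and Thy1 on no KO-labelled or C2C12 array. Of the 4 tested between the genotypes, 1 was called higher (0.77) and 3 lower in the KO-labelled samples (median of the 4, -4.14). The list summed to 6.19 to 6.25 in the KO-labelled and 6.30 to 7.09 in the WT-labelled samples. The endothelial genes Pecam1, Cdh5 and Kdr and the blood cell gene Ptprc were above background on no array, while the endothelial list, in which Flt1 alone was above background on any heart array, summed to -0.19 to 2.02 in the KO-labelled and -3.52 to -2.35 in the WT-labelled samples. The blood and macrophage list summed to 0.12 to 1.16 in the WT-labelled samples and -3.54 to -2.83 in the KO-labelled ones. The part of such cells or states in the values below was not tested.

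Values are log2 signals set against each array's own 75th percentile, which is 0 on this scale, and a difference of 1 is a doubling. Levels are compared between samples and not between genes, since probes differ in brightness. A gene was called changed when its adjusted p from limma (Benjamini-Hochberg over all genes tested) was under 0.05.

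Few members were called between the KO-labelled and WT-labelled samples, a smaller share than over all genes. Cyclins D1 and D2 fell and cyclin B2 and the checkpoint gene Bub1b rose in the KO-labelled samples. Thus 4 of the 35 members were called, 2 higher and 2 lower. Over all 15002 genes tested, 29.8% were called, 13.8% higher and 16.0% lower. The median difference was -0.05 over the members and -0.05 over all genes. For 31 of the 35 members the difference was under 0.5 in size, against 54.7% of all genes, and for 27 the 95% interval lay within 1 on either side of 0, against 49.4% of all genes. At an unadjusted p under 0.05, 5 members and 42.1% of all genes passed.

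**Figure D1:**
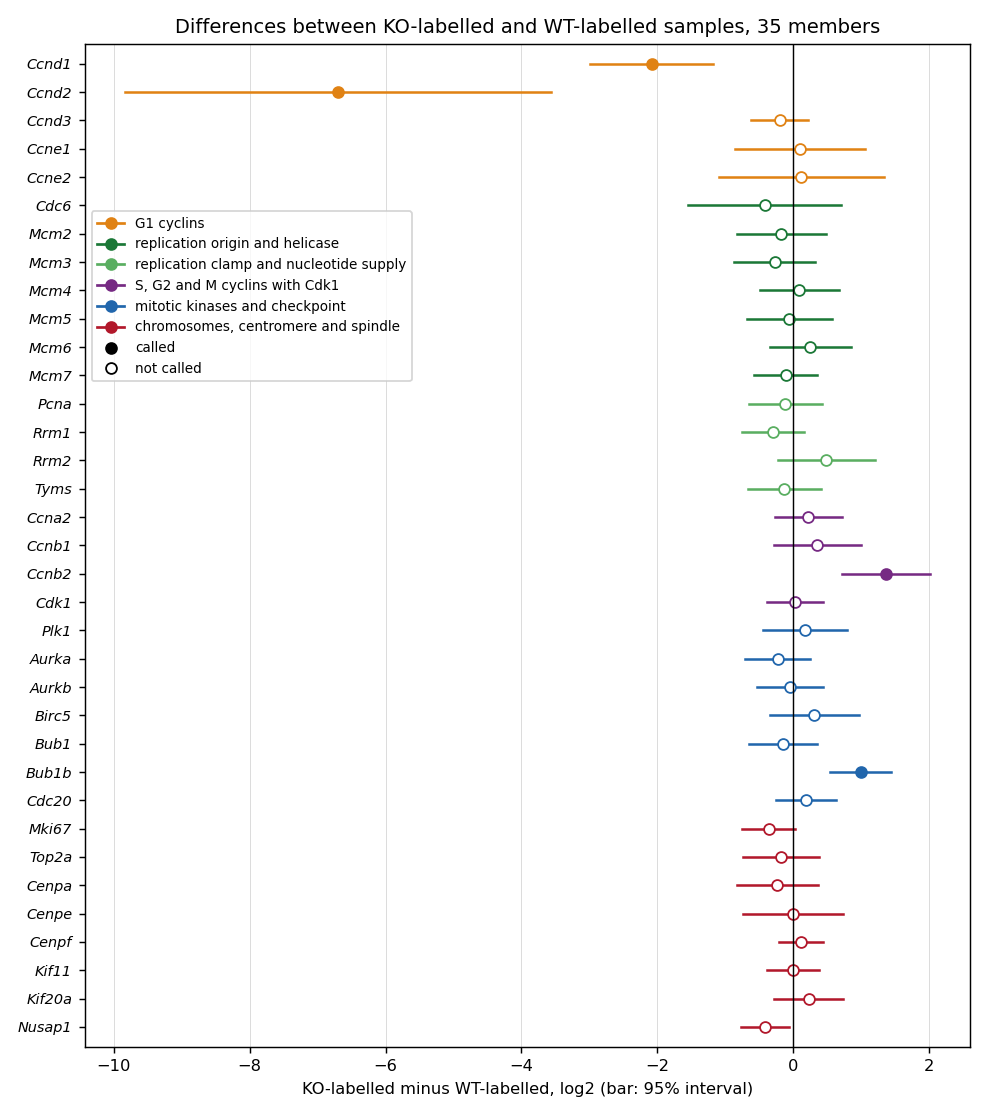
Difference between KO-labelled and WT-labelled samples (log2, x axis) for the 35 members, coloured by role, with 95% intervals from limma; filled points were called. Ccnd2 (-6.70) and Ccnd1 (-2.08) lie to the left, Ccnb2 (1.36) and Bub1b (0.99) to the right, and the other 31 intervals lie close to or across 0.

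The D-type cyclins start the cycle by activating the kinases Cdk4 and Cdk6. Ccnd1, which encodes cyclin D1, had levels of 1.65, 3.02 and 2.85 in the KO-labelled ventricle, aorta and atrium. Its WT-labelled levels were 4.45, 4.67 and 4.65 in the same order of regions, and the C2C12 levels were 2.93 and 2.38. All 3 KO-labelled samples lay below all 3 WT-labelled ones and near C2C12. The fall was 2.08 on the log2 scale, 4.24-fold (Ccnd1, SE 0.37, adjusted p = 0.00909, n = 3 and 3).

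Ccnd2, which encodes cyclin D2, gave the largest difference of all members. Its levels were -3.19, -4.79 and 0.49 in the KO-labelled ventricle, aorta and atrium, against 4.56, 4.24 and 3.80 for WT. The C2C12 samples, at -0.57 and -0.54, lay within the range of the KO-labelled ones and below every WT-labelled one. The KO atrium lay far above the other KO-labelled samples, and every KO-labelled sample lay below every WT-labelled one. The KO aorta was not well above background on either of its 2 arrays, and 3 of the 5 KO-labelled arrays were. The Ccnd2 difference was -6.70 (SE 1.28, adjusted p = 0.0118), which is no exact size because it uses the KO aorta signal at background. Without the KO aorta it was -5.55 (SE 1.07, adjusted p = 0.0222). Its 2 further probes, elsewhere in the gene, gave -6.76 and -6.87. Ccnd3, the cyclin D that muscle cells keep as they differentiate, read 2.85, 2.42 and 2.88 in KO ventricle, aorta and atrium and 2.86, 2.89 and 3.01 in the matching WT regions. Its groups overlapped (difference -0.20, 95% interval -0.62 to 0.22, adjusted p = 0.423). These are bulk cultures, in which fewer cells of a type and less RNA per cell cannot be told apart.

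**Figure D2:**
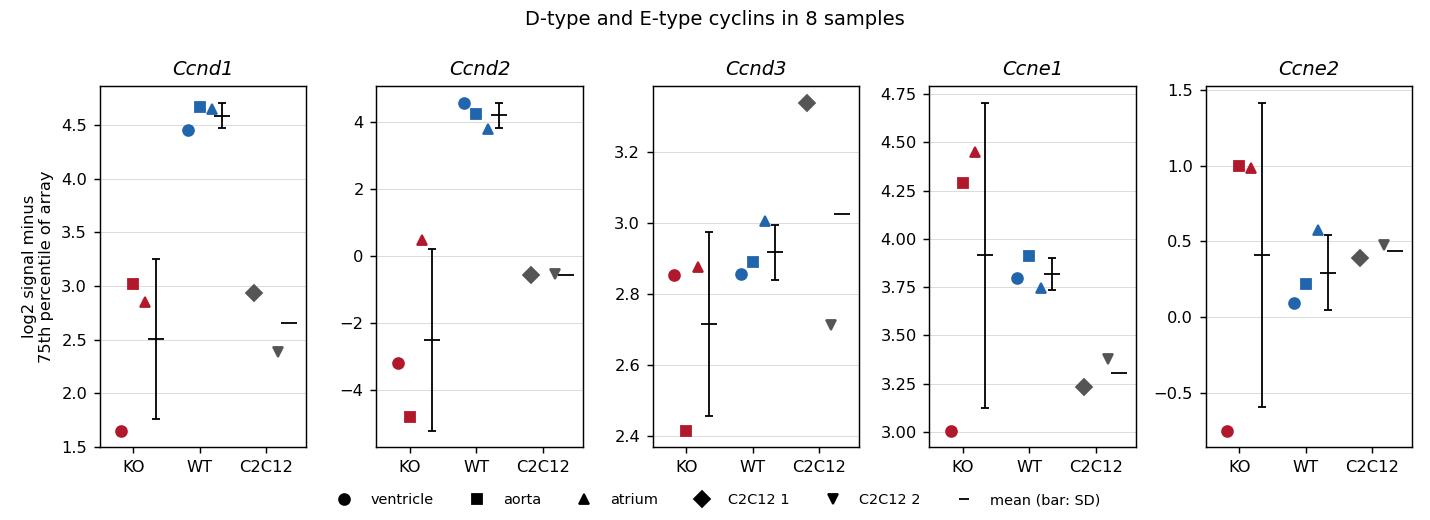
Levels of the D-type and E-type cyclins (log2 signal minus the 75th percentile of the array, y axis, with its own scale for each gene) in KO-labelled, WT-labelled and C2C12 samples; the dash is the group mean and the bar its SD (none for the 2 C2C12 samples). Ccnd1 and Ccnd2 separate the genotypes, while the KO ventricle lies below every other sample for Ccne1 and Ccne2.

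The E-type cyclins, which act with Cdk2 to start DNA synthesis, did not separate the genotypes. Ccne1 stood at 3.01 in the KO ventricle but at 4.29 and 4.45 in KO aorta and atrium, whereas the WT-labelled regions gave 3.80, 3.91 and 3.75 and C2C12 gave 3.23 and 3.38. The KO-labelled samples thus stood on both sides of the WT-labelled ones (difference 0.10, 95% interval -0.85 to 1.05, adjusted p = 0.876). Ccne2 had the same form, with -0.75, 1.00 and 0.98 in the KO-labelled ventricle, aorta and atrium and 0.09, 0.22 and 0.57 for WT (difference 0.12, 95% interval -1.10 to 1.33, adjusted p = 0.883). The intervals are wide enough to hold a doubling in either direction for Ccne2.

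The replication genes follow the E-type cyclins in the cycle. Cdc6 loads the helicase onto replication origins, Mcm2, Mcm3, Mcm4, Mcm5, Mcm6 and Mcm7 encode the helicase itself, Pcna the sliding clamp of the polymerases, Rrm1 and Rrm2 the enzyme that makes deoxynucleotides and Tyms the enzyme that makes thymidylate. None of these 11 genes was called between the genotypes. The differences ran from -0.42 for Cdc6 and -0.30 for Rrm1 (adjusted p = 0.279) up to 0.25 for Mcm6 and 0.48 for Rrm2 (adjusted p = 0.263). Pcna, a standard mark of cycling cells, read 5.21, 5.90 and 5.80 in KO ventricle, aorta and atrium. The WT-labelled levels were 5.64, 5.73 and 5.90, and those of C2C12 5.76 and 5.73. All samples but the KO ventricle lay close together (Pcna difference -0.12, 95% interval -0.65 to 0.41, adjusted p = 0.730). The interval lay within 1 on either side of 0 for 9 of the 11, all but Cdc6 and Rrm2.

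Among the cyclins of S, G2 and M phase, only the Ccnb2 difference passed the test. Ccnb2, which encodes cyclin B2, read 4.99, 5.03 and 4.93 in KO ventricle, aorta and atrium but only 3.86, 3.03 and 3.96 in the same WT regions. The C2C12 samples, at 4.70 and 4.97, lay with the KO-labelled ones, and no KO-labelled sample overlapped a WT-labelled one. The rise was 1.36, or 2.58-fold (SE 0.27, adjusted p = 0.0124). Ccnb1, the other B-type cyclin and the main partner of Cdk1 at entry into mitosis, read 2.46, 2.56 and 2.70 in KO ventricle, aorta and atrium and 2.17, 1.76 and 2.73 for WT. The WT atrium lay above every KO-labelled sample, and the difference of 0.35 was not called (adjusted p = 0.357). Without the WT atrium it was 0.61 (adjusted p = 0.0401). Ccna2 (cyclin A2) differed by 0.22 and Cdk1, the kinase that these cyclins activate, by 0.03 (95% interval -0.38 to 0.44).

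Of the mitotic kinases and checkpoint genes, Bub1b was called. It encodes BubR1, which holds back anaphase until every chromosome is attached. Ventricle, aorta and atrium gave 2.33, 2.24 and 2.45 for KO and 1.39, 1.05 and 1.61 for WT, and the C2C12 samples gave 2.42 and 2.49. The genotypes did not overlap, and the KO-labelled samples lay with C2C12 (difference 0.99, 1.99-fold, SE 0.18, adjusted p = 0.0104). Its relative Bub1, a checkpoint kinase, differed by -0.15 (adjusted p = 0.614). Plk1, Aurka and Aurkb, kinases of the spindle and of chromosome segregation, differed by 0.17, -0.23 (adjusted p = 0.422) and -0.05. Birc5 (survivin, a partner of Aurkb) differed by 0.31 (adjusted p = 0.432), and by 0.59 without the WT atrium (adjusted p = 0.0322). Cdc20, which activates the anaphase-promoting complex, differed by 0.19.

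None of the 8 genes of chromosome structure, centromere and spindle was called. Mki67, whose protein Ki-67 coats mitotic chromosomes and marks cycling cells, read 4.36, 4.20 and 4.44 in KO ventricle, aorta and atrium and 4.67, 4.91 and 4.52 for WT. Every KO-labelled value lay below every WT-labelled one, but the gap between the nearest samples was small (difference -0.37, 95% interval -0.75 to 0.02, adjusted p = 0.134). Nusap1, a spindle protein gene, read 1.91, 1.62 and 1.84 against 2.22, 2.08 and 2.30 in the same order of regions (difference -0.42, adjusted p = 0.0784). A second Nusap1 probe went the other way, at 1.39 (adjusted p = 0.0284), and was above background on only 1 of the 3 WT-labelled arrays. Of the 18 further tested probes of all members, 15 kept the sign of the probe used and 17 its call. With every array as its own sample, Mki67 (-0.39, adjusted p = 0.0322) and Nusap1 (-0.43, adjusted p = 0.0187) were called. Top2a (topoisomerase II alpha), the centromere genes Cenpa, Cenpe and Cenpf and the motor genes Kif11 and Kif20a differed by -0.24 to 0.23. Without overlap between the genotypes, 2 members were higher in the KO-labelled samples (22.2% of all genes were) and 4 were lower (27.1% of all genes were).

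**Figure D3:**
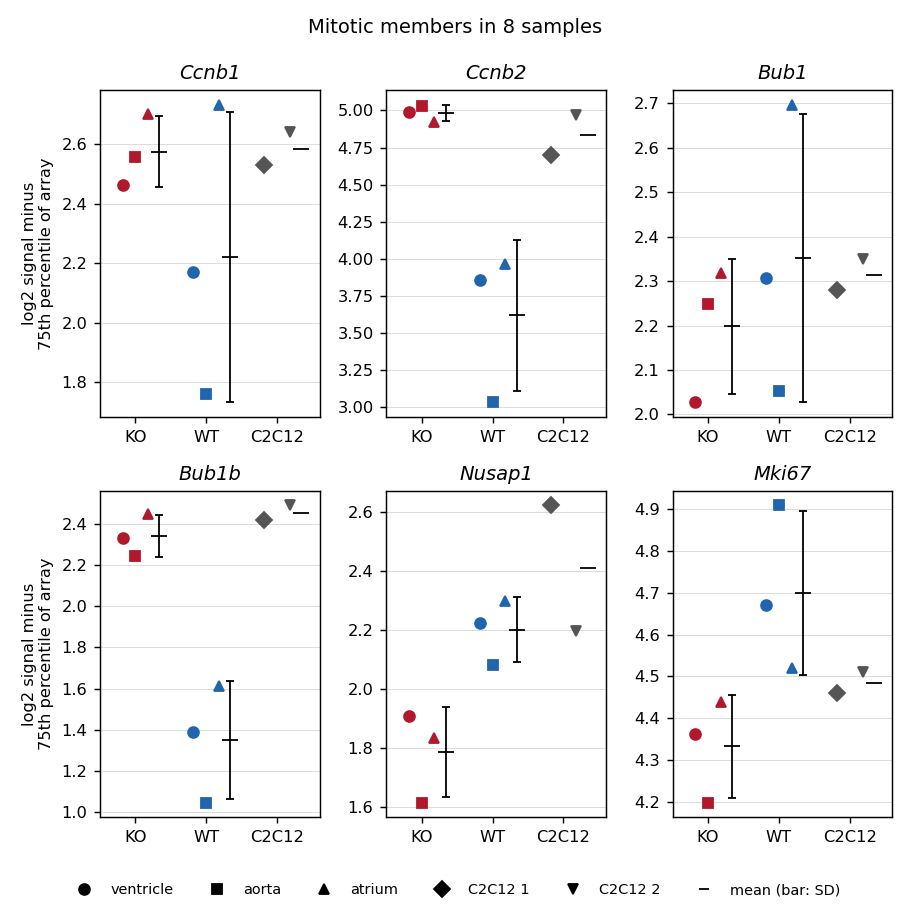
Levels of 6 mitotic members (log2 signal minus the 75th percentile of the array, y axis, with its own scale for each gene) by group; the dash is the group mean and the bar its SD (none for the 2 C2C12 samples). Ccnb2 and Bub1b lie above the WT-labelled samples in all KO-labelled and C2C12 samples, whereas their relatives Ccnb1 and Bub1 overlap.

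Of the members, 28 had a promoter in the RefSeq table (build GRCm38.p6), with 30 promoters in all. Ccnd1, Ccnd2, Ccne2, Mcm4, Ccna2, Aurkb and Kif20a had none there. The 250 bases before each start were searched on both strands for CCAAT, for TTTGAA (the element that the repressor complex of mitotic genes binds) and for the E2F words TTTCCCGC, TTTCGCGC, TTTGCCGC and TTTGGCGC. CCAAT stood in 24 of the 30 member promoters and in 33.8% of all 32851. TTTGAA stood in 7 and in 16.0% of all, and an E2F word in 5 and in 1.86% of all. Among the 12 promoters of replication and E-cyclin members, 9 held CCAAT, 1 TTTGAA and 4 an E2F word. Among the 16 of the S, G2 and M phase members, 14 held CCAAT, 6 TTTGAA and 1 an E2F word. A match is a description of the letters and not a binding site.

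The promoters of both members that rose and of 2 helicase genes are shown, 5′ to 3′ on the strand of the gene. Both helicase genes read lowest in the ventricle among the KO-labelled samples. Both held an E2F word, which only 4 of the 12 promoters of replication and E-cyclin members did. In the promoters shown, the matched words are in capitals, on either strand (ATTGG is CCAAT on the other strand). Where words overlap the run of capitals is longer. The promoters lie at chr9:70421555-70421804, minus strand for Ccnb2, chr2:118597961-118598210, plus strand for Bub1b, chr8:75109259-75109508, plus strand for Mcm5 and chr1:128359706-128359955, minus strand for Mcm6.
Ccnb2: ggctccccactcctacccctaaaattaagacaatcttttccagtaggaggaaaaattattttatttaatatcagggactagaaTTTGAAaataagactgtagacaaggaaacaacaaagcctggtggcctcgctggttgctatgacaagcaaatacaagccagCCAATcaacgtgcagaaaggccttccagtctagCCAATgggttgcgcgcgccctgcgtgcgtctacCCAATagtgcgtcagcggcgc
Bub1b: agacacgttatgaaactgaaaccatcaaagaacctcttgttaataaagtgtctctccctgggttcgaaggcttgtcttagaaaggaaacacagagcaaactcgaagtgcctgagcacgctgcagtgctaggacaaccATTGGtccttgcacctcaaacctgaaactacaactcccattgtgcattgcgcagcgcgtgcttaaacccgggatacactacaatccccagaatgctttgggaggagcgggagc
Mcm5: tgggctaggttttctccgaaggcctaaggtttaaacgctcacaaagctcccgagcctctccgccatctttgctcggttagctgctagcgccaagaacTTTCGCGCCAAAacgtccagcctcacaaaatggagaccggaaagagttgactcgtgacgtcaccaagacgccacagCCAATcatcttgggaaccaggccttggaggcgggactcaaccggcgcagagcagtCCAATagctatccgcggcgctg
Mcm6: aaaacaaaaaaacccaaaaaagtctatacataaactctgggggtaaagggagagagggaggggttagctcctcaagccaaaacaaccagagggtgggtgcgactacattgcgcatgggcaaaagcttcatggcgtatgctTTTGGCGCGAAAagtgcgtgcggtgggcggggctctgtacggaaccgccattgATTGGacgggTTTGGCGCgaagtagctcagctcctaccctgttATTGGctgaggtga
Ccnb2 held 3 copies of CCAAT, at 87, 54 and 21 bases before the start, and TTTGAA at 167. Bub1b held 1 CCAAT on the other strand, and no E2F word. Mcm5 held overlapping E2F words on both strands, at 153 and 149 bases before the start. Mcm6 held such a pair at 110 and 106 and a further word at 47.

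No slide held both genotypes. In a fit with the slide as a block, in which each genotype is set against C2C12 on its own slides, 0 of the 35 members were called, and 897 of 15807 genes (5.67%) were. The SE of a gene was then 2.01 times as large in the median. The blocked difference was -2.63 for Ccnd1 (adjusted p = 0.120), -6.66 for Ccnd2 (adjusted p = 0.227), 1.63 for Ccnb2 (adjusted p = 0.164) and 1.06 for Bub1b (adjusted p = 0.185). Each was about as large as without the block or larger. The C2C12 samples of slides 1 and 3 and of slide 2 differed by under 0.5 for 33 of the 35 members, with a median difference of 0.00 and a range of -0.40 to 0.63. The members beyond 0.5 were Ccnd1 (0.55), which is among the 4 calls, and Ccnd3 (0.63). In these C2C12 samples the 9 skeletal muscle markers summed to 8.02 (slides 1 and 3) and 6.73 (slide 2). A difference between slides and a difference between the C2C12 samples cannot be told apart, and the block rests on it. The part of the slide in the 4 calls was not tested further.

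Set against C2C12, the KO-labelled samples gave 0 calls among the 35 members, where 1.26% of all genes were called. At an unadjusted limma p under 0.05, 3 members passed, all lower than C2C12, where 12.5% of all genes passed. The members were Cenpf (-0.47, SE 0.14), the spindle motor gene Kif11 (-0.50, SE 0.16) and Nusap1 (-0.62, SE 0.18), with adjusted p = 0.214, 0.271 and 0.215. They were called when every array was its own sample. For 29 of the 35 members the 95% interval of the difference lay within 1 on either side of 0, against 62.9% of all genes. Ccnb2 differed from C2C12 by 0.15 (95% interval -0.52 to 0.82) and Bub1b by -0.11 (-0.56 to 0.33).

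The WT-labelled samples differed from C2C12 in 5 members, where 27.0% of all genes were called, 13.7% higher and 13.3% lower. Ccnd1 was higher by 1.93 (SE 0.41, adjusted p = 0.0127) and Ccnd2 by 4.76 (SE 1.33, adjusted p = 0.0370). Bub1b (-1.10, SE 0.19, adjusted p = 0.00554), Ccnb2 (-1.22, SE 0.28, adjusted p = 0.0185) and the kinetochore gene Cenpf (-0.58, SE 0.14, adjusted p = 0.0197) were lower. The 3 comparisons share samples, so the values are set side by side only. Without C2C12 replicate 2 only Bub1b was called, without C2C12 replicate 1 only Bub1b and Ccnd1, and without WT ventricle or WT aorta, or with no filter on dim probes, only Bub1b, Ccnb2 and Ccnd1. With the slide as a block only Bub1b and Ccnd1 were called, with adjusted p = 0.151 for Ccnd2, 0.0675 for Ccnb2 and 0.0956 for Cenpf. The Ccnd2 call also ended without KO ventricle (adjusted p = 0.0547) and without WT atrium (adjusted p = 0.0521). Where a C2C12 sample was left out, the lone one was assumed to vary like the other groups.

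Across heart regions, the KO ventricle read lowest for the genes that start and carry out DNA replication. This group, put together after the values were seen and given no test, joins the E-type cyclins to the 11 replication genes. All 13 read lowest in the ventricle among the 3 KO-labelled samples, where 43.2% of all genes did. In 11 of the 13 the KO ventricle was also the lowest of all 8 samples, where 15.4% of all genes were. Against the mean of the other KO-labelled regions the median difference was -0.65, with a range of -1.74 to -0.30, and over all genes it was -0.04. The deficit was largest for Ccne2 (3.34-fold), Ccne1 (2.57-fold) and Cdc6 (2.43-fold) and smallest for Tyms (1.23-fold).

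The single arrays and the further probes show the same low values. Ccne2 read -0.71 and -0.79 on the 2 KO ventricle arrays, 0.94 and 1.06 on the KO aorta arrays and 0.98 on the KO atrium array. For Cdc6 the ventricle arrays gave -0.07 and -0.03, the aorta arrays 1.24 and 1.22 and the atrium array 1.24. The paired arrays may be the same RNA, so they show the repeat of a reading and not of a culture. The 5 further tested probes of these genes were all lowest in the KO ventricle, among the KO-labelled samples and among all 8. In a separate list of 35 genes of origin firing, replication forks and nucleotide supply, 30 were lowest in the KO ventricle among the KO-labelled samples (median -0.52). Among the 19 members of S, G2 and M phase the KO ventricle was lowest in 8, with a median of -0.16. In a separate list of 27 spindle, kinetochore and cytokinesis genes it was lowest in 17, with a median of -0.17. The share over all genes was 43.2%, with a median of -0.04.

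**Figure D4:**
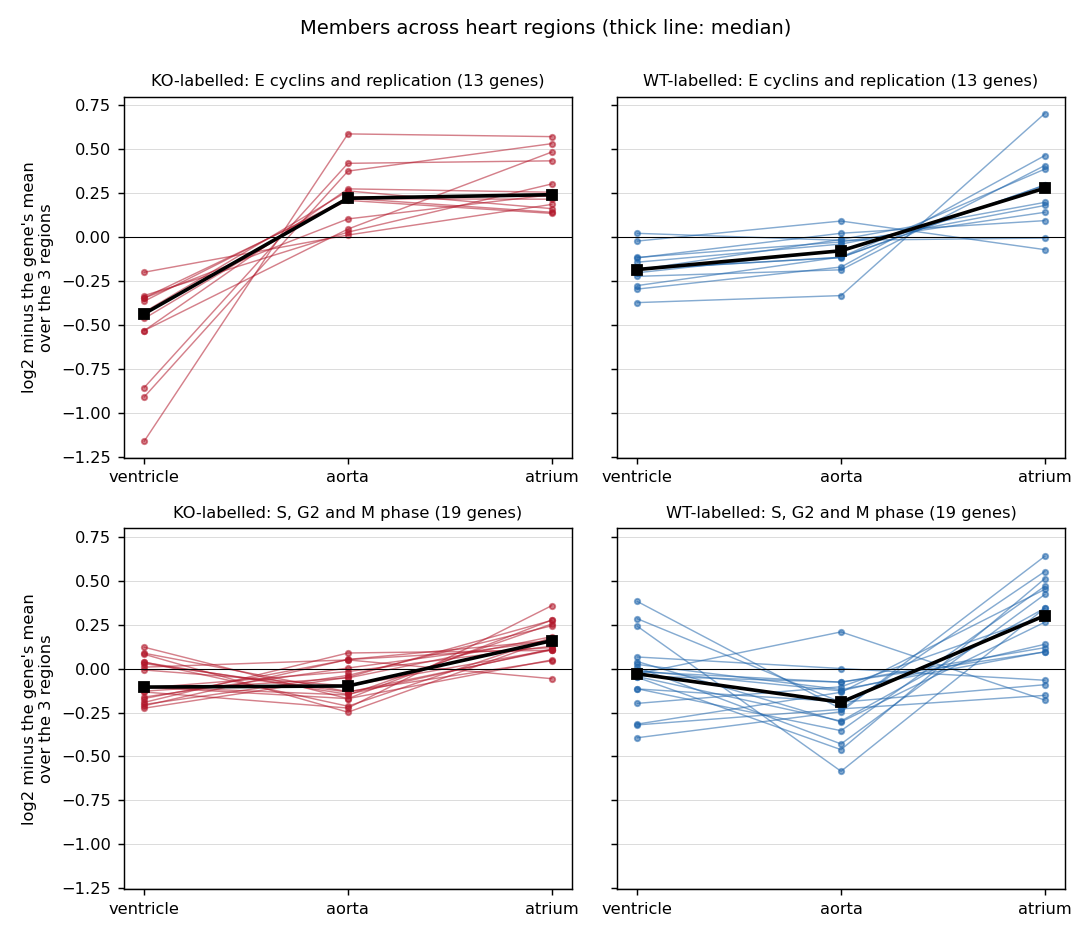
Members across heart regions (x axis) as log2 values minus the mean of each gene over the 3 regions of a genotype (y axis), for the E-type cyclins with the replication genes (top) and the S, G2 and M phase members (bottom); thin lines are genes and the thick line is the median. All 13 top lines dip in the KO ventricle, and most lines of all panels are highest in the atrium.

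The WT ventricle was lowest of its genotype in 11 of the same 13 genes (28.4% of all genes were), by a smaller median of -0.28. The difference between genotypes in this dip was not tested, since each region had 1 sample per genotype. The atrium was highest in 25 of the 35 members among the KO-labelled samples (34.9% of all genes) and in 27 among the WT-labelled ones (43.2% of all genes). In a fit across both genotypes with genotype as a covariate, 0 members and 0 genes of all were called for ventricle with aorta (0.0%), ventricle with atrium (0.0%) and aorta with atrium (0.0%). This limma fit had 2 residual degrees of freedom before pooling. At an unadjusted p under 0.05, 0, 2 and 1 members passed, of 440, 1146 and 675 genes in all. These were Cdc6 (-1.18, SE 0.37) and Rrm2 (-0.75, SE 0.23) in ventricle with atrium and Plk1 (-0.63, SE 0.19) in aorta with atrium.

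Among the KO-labelled samples, the summed level of skeletal muscle markers was highest in the ventricle. The summed level of the 9 skeletal muscle markers was 7.53, 5.65 and 6.71 in KO ventricle, aorta and atrium, and 1.42, 0.29 and -0.86 in the matching WT regions. Of these, 8 were above background on all 5 KO-labelled arrays. Myog, the myogenin gene that is switched on as myoblasts leave the cycle, gave 4.61, -0.43 and 1.37 in KO ventricle, aorta and atrium and 5.82 and 3.94 in the C2C12 samples. Cdkn1a, which encodes the inhibitor p21, was also highest in the ventricle (3.24, against 1.95 in aorta and 2.19 in atrium). Among WT-labelled samples Cdkn1a was at 3.37 in ventricle and 3.40 in aorta but at -0.21 in atrium. The mean Cdkn1a level of the KO-labelled samples lay 1.71 below the C2C12 sample of slides 1 and 3. That C2C12 sample read 1.07 above the other. In the 2 C2C12 samples the 9 skeletal muscle markers summed to 8.02 and 6.73. Each C2C12 sample was the lowest of all 8 in 0 of the 13 E-cyclin and replication genes. Their median distance from the mean of the 8 samples was -0.07 and 0.00, against -0.44 in the KO ventricle. The part of differentiation in the replication values was not tested.

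CDK inhibitors, the brakes of the cycle, were measured for comparison in a list of 7, of which 6 were tested and 2 were called higher and 1 lower in the KO-labelled samples. Cdkn2b, which encodes p15 and blocks the cyclin D kinases, read 2.46, 2.36 and 2.52 in WT ventricle, aorta and atrium. It was not well above background on any KO-labelled or C2C12 array. Set against the lowest signal above background, the KO-labelled level was lower by at least 169.7-fold. The fitted difference was -9.58 (limma adjusted p = 1.06e-05), and -9.03 with the slide as a block (adjusted p = 0.000946). Neither is an exact size, since both use signals at background. Cdkn2b passed the filter only through the 3 WT-labelled arrays, where it is high, so these p-values give no separate support. Its neighbour Cdkn2a was above background on 2 of the 3 WT-labelled arrays and on no other array, and was not tested. Cdkn1c, which encodes p57, was above background on all KO-labelled arrays (-2.83, -3.14 and -3.71 in ventricle, aorta and atrium) and on no WT-labelled array. The KO-labelled level was higher by at least 3.20-fold. The fitted difference, which uses WT-labelled signals at background, was 3.79 (limma adjusted p = 0.000934), and 2.44 with the slide as a block (adjusted p = 0.140). In the fit of the 6 heart samples Cdkn1c passed the filter only through the KO-labelled arrays, so its p-value there gives no separate support.

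Cdkn1b, which encodes p27, read -0.29, -0.81 and -0.80 in KO ventricle, aorta and atrium and -1.56, -2.04 and -1.52 for WT. The groups did not overlap, and the difference was 1.08 (SE 0.23, adjusted p = 0.0167). The Cdkn1b call ended with the slide as a block (1.16, adjusted p = 0.234), with the mean of its probes (0.59, adjusted p = 0.109) and without WT aorta (0.91, adjusted p = 0.0509). Cdkn1a differed by 0.27 (SE 1.03, adjusted p = 0.870), with the WT atrium far below the other samples. Cdkn2c (p18) differed by -0.54 (adjusted p = 0.0592) and passed without the WT atrium (-0.61, adjusted p = 0.0439), with the mean of its probes (-0.55, adjusted p = 0.0482) and with every array as its own sample (-0.57, adjusted p = 0.00798).

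**Figure D5:**
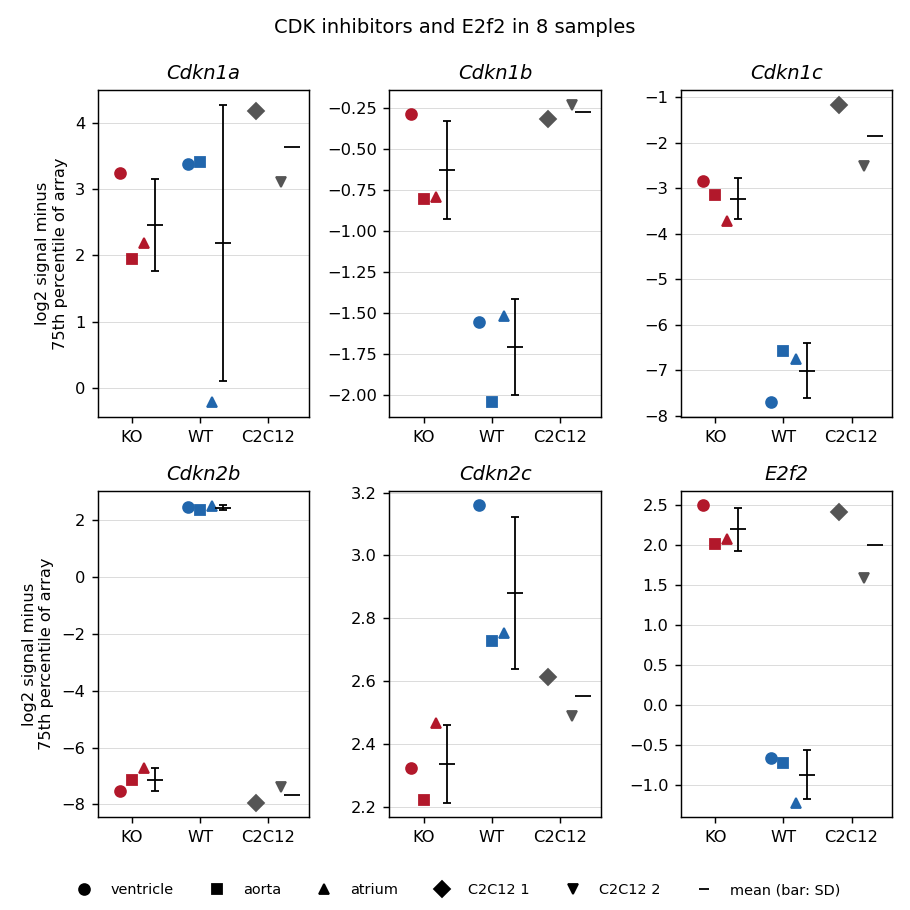
Levels of 5 CDK inhibitors and E2f2 (log2 signal minus the 75th percentile of the array, y axis, with its own scale for each gene) by group; the dash is the group mean and the bar its SD (none for the 2 C2C12 samples). Cdkn2b is bright only in the WT-labelled samples, and Cdkn1c and E2f2 are higher in the KO-labelled and C2C12 samples; Cdkn2b in KO-labelled and C2C12 samples and Cdkn1c in WT-labelled samples lie at background.

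The other lists of the pathway are read against the 13.8% of all genes called higher and the 16.0% called lower between the genotypes. Of 14 G1 kinases, Rb proteins and E2F factors, 1 was higher and 0 were lower. That gene was E2f2, an activating E2F factor, at 2.49, 2.01 and 2.08 in KO ventricle, aorta and atrium and -0.67, -0.73 and -1.22 for WT (difference 3.07, SE 0.22, adjusted p = 0.00028). It was still called with the slide as a block (2.25, adjusted p = 0.0438). Of 16 origin licensing and firing genes, 1 was higher (Cdc45, a helicase cofactor, 0.85) and 1 lower (Gins4, part of the same helicase complex, -0.62). Of 19 fork and nucleotide genes, 1 was higher (Dut, dUTPase, 1.01) and 2 were lower, among them Pole (a replicative polymerase, -0.94). Of 27 spindle, kinetochore and cytokinesis genes, 4 were higher and 0 lower, a share near that of all genes called higher. They were the kinetochore genes Spc24 (1.77, adjusted p = 0.0029) and Ndc80 (0.64), Pttg1, which encodes the anaphase inhibitor securin (1.07, adjusted p = 0.00859), and the cytokinesis motor gene Kif23 (0.81). Of 9 tested genes of the p53 and DNA damage checkpoint, 0 were called by limma, with 3 at an unadjusted p under 0.05, where 42.1% of all genes were.

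Over all 93 genes of these lists, 91 were tested, 9 were higher and 4 lower, with a median of -0.04, against 29.8% of all genes called and a median of -0.05. The slide block left E2f2 called, and also Cdkn2b, whose KO-labelled and C2C12 values lie at background. The calls of Cdc45, Gins4, Dut and Pole ended in most fits that left out a single sample and in the fit with no filter on dim probes. Without KO aorta or KO atrium 7 of the 13 remained, without WT ventricle 6 and without WT aorta 5, and without WT atrium 24 were called. With any 1 WT-labelled sample left out, Cdkn2b was above background on too few arrays to be tested.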

How the data were processed

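RNA of 3 KO-labelled, 3 WT-labelled and 2 C2C12 samples was hybridised to 11 Agilent arrays in 1 colour. Per the submitters' processing notes, the deposited spot intensity values were extracted with Agilent Feature Extraction 9.5.3.1, with the background subtracted per the file headers. They carry no scaling between arrays, per the file headers. The authors' deposited series-wide log2 values equalled log2 of the mean processed signal within 0.01 for 99.7 to 99.8% of probes, so no scaling or centring stayed unknown. Control and outlier spots were left out, spots of a probe averaged and log2 values set against the 75th percentile of the array. Arrays of a group and region that differed by less than spot noise (ratio 0.561 to 0.676, others at least 2.38, over 8615 bright probes) were averaged. Genes took their probe with the highest mean among those above background on at least 3 fitted arrays. Names were updated through RefSeq (GRCm38.p6) by accession, symbol or synonym, and 8061 of 41121 probes kept the array's name.

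Comparisons used limma 3.58.1 (lmFit, eBayes) in R 4.3.3, Python 3.11.15, numpy 2.4.6 and pandas 2.3.3, with plots from matplotlib 3.10.9. KO with WT and regions used the 6 heart samples, and comparisons with C2C12 all 8. Fits were tested on simulated data. Where a gene was above background on no array of a group, its fold is a bound from the lowest signal above background and is written "at least". Members, lists, the joining of arrays and the tests were chosen with earlier results of these data known. Values per sample are given for called members, topped up to 12 by adjusted p, and for the 5 G1 cyclins, Mki67 and Pcna. From each pathway list up to 2 called genes per direction were named (1 is not reported here), and the CDK inhibitors Cdkn1a, Cdkn1b, Cdkn1c, Cdkn2a and Cdkn2c. Kif23, Ndc80 and Myog were added after their values were seen. Alternatives varied the joining, scaling, background, filter, probe choice, source table, samples left out, region and slide.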

Additional observations from a re-analysis of the deposited data

Results flagged for a closer look

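The E-type cyclins differed in opposite directions between the genotypes in different heart regions. Ccne1, KO-labelled minus WT-labelled, was -0.79 in the ventricle and 0.70 in the atrium. Ccne2 was -0.84 in the ventricle and 0.78 in the aorta. Each value sets 1 sample against 1, so the difference between regions was not tested.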

How the results depend on the processing

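Ccnd1, Ccnd2, Ccnb2 and Bub1b kept direction and call in every fit run for KO with WT except the one with the slide as a block, which called 0 members. Leaving out single samples gave 4 to 6 member calls. The pathway lists (13 calls) gave 30 with every array as its own sample, 7 with no filter on dim probes, 2 with the slide as a block and 5 to 24 without single samples. KO with C2C12 gave 3 member calls with every array as its own sample. WT with C2C12 (5 calls) gave 3 with no filter, 2 with the slide as a block and 1 to 7 without single samples. The cause of these shifts was not tested. Fits without a single sample had fewer samples, and the fit with no filter tested more genes. Member calls between regions stayed at 0 in the fits run, while over all genes 50 to 72 were called with every array as its own sample, and 127 (ventricle with atrium) and 123 (aorta with atrium) without KO atrium. No named gene reversed a call. Median scaling moved the median of all genes from -0.05 to 0.05 and that of the members from -0.05 to 0.06. The labels give no replicate numbers, so the genotypes were paired by heart region alone. With region as a block 4 members and 3647 genes in all were called, 26 of 28 named genes kept their side of the threshold, and the calls of Gins4 and Dut ended. The small number of samples limits all comparisons, signals near background have no order, and slide and genotype are separated only through C2C12.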
